A study of Mus musculus with 14 samples.

Results

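The alpha globin and beta globin gene clusters were examined for binding of CTCF and for H3K27ac in mouse embryonic stem cells (mESCs) of 2 genotypes, wild type (WT) and CTCF-K20R, in which arginine stands in place of lysine 20 of CTCF. The regions were all peaks in a window of 320 kb around the alpha globin genes (chr11:32080000-32400000, mm10) and in a window of 300 kb around the beta globin genes (chr7:103700000-104000000, mm10). Overlapping CTCF peaks of the 8 lists were merged into sites, which gave 31 sites in the alpha globin window and 5 in the beta globin window, of 86652 in the genome. Below, sites are numbered along each chromosome as A1 to A31 and B1 to B5. The cells were E14Tg2A mESCs, a line from a mouse strain other than that of the reference genome, and the K20R allele had been made with CRISPR/Cas9. At day 0 they were undifferentiated mESCs, grown on inactivated fibroblasts with LIF and inhibitors. At day 4 they were embryoid bodies (EBs), made in hanging drops without LIF. CTCF was mapped by ChIP-seq in 2 replicates of WT and 2 of K20R on each day, and H3K27ac, a histone mark found at active promoters and enhancers, in 1 library of each genotype at day 4. The number of clones behind each genotype is not given in the sources used here, so genotype and clone cannot be told apart.

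Globin genes encode the protein chains of haemoglobin and are switched on in red blood cell precursors. In the mouse alpha cluster, Hba-x encodes the embryonic zeta chain and Hba-a1 and Hba-a2 the adult alpha chains, while Hbq1b and Hbq1a are theta-like genes beside them. The distal enhancers of the alpha genes lie in introns of a neighbour, Nprl3, which encodes a subunit of the GATOR1 complex and lies next to Mpg, a DNA repair glycosylase gene. In the beta cluster, Hbb-y and Hbb-bh1 are embryonic genes and Hbb-bs and Hbb-bt adult ones, governed by a locus control region upstream, and olfactory receptor (Olfr) genes surround them. CTCF is known to bind on both sides of both clusters, and pairs of CTCF motifs that point towards each other are known to anchor chromatin loops. Neither mESCs nor day 4 EBs are an erythroid tissue.

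The DNA beneath the sites that the results turn on is shown first. Each sequence is 59 bases of the RefSeq mouse genome (GRCm38.p6, the same build as mm10), read 5′ to 3′ on the strand of the best match to a CTCF matrix learned from these peaks, and the 19 matched bases are in capitals. The first set is the strongest pair of sites within and beside the alpha genes, at the theta-like promoters. The match of A22 lies at chr11:32286930-32286948 (minus strand), 35 bp from the summit to the start site of Hbq1b, and that of A24 at chr11:32300035-32300053 (minus strand), 41 bp from the start site of Hbq1a.
A22: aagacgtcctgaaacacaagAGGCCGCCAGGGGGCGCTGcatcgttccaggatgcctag
A24: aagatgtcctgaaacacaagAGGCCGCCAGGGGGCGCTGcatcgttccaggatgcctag
The 2 sequences agree at 58 of 59 bases, and over 319 bases around the match they are 97.2% identical, since the theta-like genes lie in duplicated segments. The same duplication holds a pair of weak sites, A21 (match at chr11:32286044-32286062, plus strand) and A23 (chr11:32299067-32299085, plus strand), which agree at 55 of 59 bases and whose matches lie in DNA that the reference masks as repeats.
A21: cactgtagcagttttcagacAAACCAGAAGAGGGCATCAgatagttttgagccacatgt
A23: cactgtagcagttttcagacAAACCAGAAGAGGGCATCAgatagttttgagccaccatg
Reads that map equally well to both copies would have been discarded by the mapping quality filter, so values at A21 to A24 rest on the reads that the filter kept.

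The next set holds the nearest sites outside the alpha genes. A18 (chr11:32238653-32238671, minus strand) and A20 (chr11:32247261-32247279, plus strand) lie in introns of Nprl3, 37.8 kb and 29.1 kb before the start of Hba-x, and A25 (chr11:32321391-32321409, minus strand) lies between genes, 24.1 kb beyond the end of Hba-a2.
A18: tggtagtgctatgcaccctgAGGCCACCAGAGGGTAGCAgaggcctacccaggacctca
A20: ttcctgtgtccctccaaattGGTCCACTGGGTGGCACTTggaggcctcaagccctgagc
A25: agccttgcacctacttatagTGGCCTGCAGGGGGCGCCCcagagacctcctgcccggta
A20 scored 9.06 against the matrix, little above the threshold of 8.15 that 5% of shifted sequences pass, whereas A22 and A24 scored 24.3 each. The remaining sequences are those of A3 (chr11:32110088-32110106, plus strand, in a masked repeat) and A30 (chr11:32375160-32375178, minus strand, in an intron of Sh3pxd2b), the sites with the firmest changes in strength, and of B2 (chr7:103807070-103807088, minus strand) and B5 (chr7:103942939-103942957, minus strand), the sites of the beta window that were called in every library.
A3: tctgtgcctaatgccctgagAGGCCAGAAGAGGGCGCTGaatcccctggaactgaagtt
A30: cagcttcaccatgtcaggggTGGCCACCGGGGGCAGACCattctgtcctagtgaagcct
B2: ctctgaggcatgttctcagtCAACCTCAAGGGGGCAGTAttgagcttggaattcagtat
B5: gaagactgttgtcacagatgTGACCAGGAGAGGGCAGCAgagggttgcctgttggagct

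The 8 CTCF lists held 41360 to 77657 peaks, with the shortest lists in K20R EBs. Each peak carries the fold enrichment at its summit, which the peak caller computes from the reads piled up there and a local background taken from an input library. The whole number of reads at the summit was solved from the fold enrichment and the p-value, and a solution was found for 100% of 441394 values. Library medians over the 36440 sites called in all 8 lists ranged from 32 to 56 summit reads and from 15.2 to 27.3 in fold enrichment, although the authors had brought the libraries to equal read numbers. The local background agreed within 1.1-fold between replicates of a group at 79% to 85.6% of these sites, but between WT and K20R replicate 1 at 24.6% (day 0) and 28.7% (day 4). The labels list 1 input library for each genotype and day. Which input served each library is not stated. If replicates of a group shared 1 input, the spread between them leaves out its error. The p-values from fold enrichment would then be too small, by an amount that was not tested. Tests of strength below are given on fold enrichment and, beside them, on summit reads.

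CTCF sites were dense in the alpha globin window and sparse in the beta globin window. The alpha window held 96.9 sites per Mb and the beta window 16.7, against 31.8 over the genome. In the alpha window, 21 of 31 sites were called in all 8 lists, and in the beta window 2 of 5, against 42.1% of all sites. Of the alpha sites, 20 lay before Hba-x, 2 between Hba-a1 and Hba-a2, and 9 beyond Hba-a2. No site lay between Hbb-bt and Hbb-y, a span of 40.7 kb, in any library.

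The map of peak calls shows these patterns by library.

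**Figure D1:**
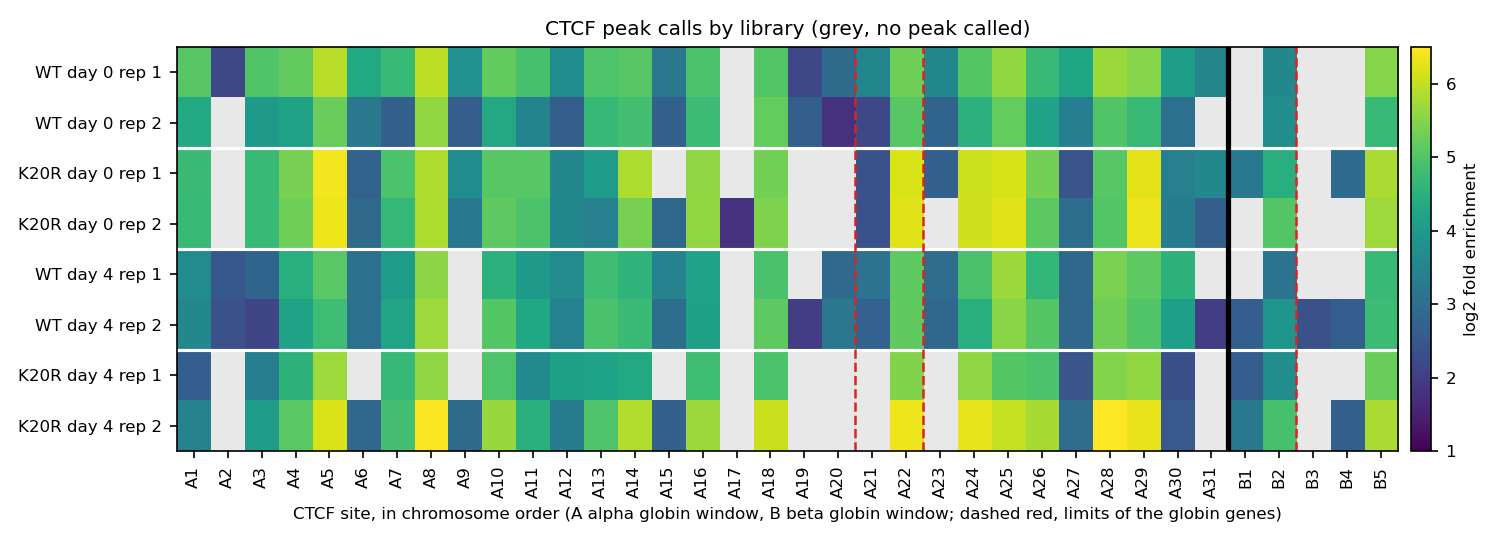
Columns are the 31 alpha globin and 5 beta globin CTCF sites in chromosome order, rows the 8 CTCF libraries (rep, replicate), and colour the log2 fold enrichment, with grey where no peak was called. Sites A2, A19, A20 and B3 hold colour in WT rows alone, A21 and A23 are grey in both K20R rows of day 4, and 21 alpha sites and 2 beta sites are coloured in all 8 rows.

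Within the alpha genes and at their edges, the strong sites at the theta-like promoters were called in all 8 libraries, whereas their weak neighbours were not called in K20R EBs. At A22, the summit reads were 94 and 66 in WT and 124 and 130 in K20R at day 0, and 61 and 62 in WT and 76 and 140 in K20R at day 4. At A24, they were 79 and 57 in WT and 116 and 118 in K20R at day 0, and 74 and 64 in WT and 83 and 133 in K20R at day 4. At both sites and on both days, each K20R library held more reads than each WT library. A21, just before A22, had 19 and 7 reads in WT and 8 and 8 in K20R at day 0, and 14 and 12 reads in WT at day 4, with no call in K20R. A23, the copy of A21 beside A24, had 19 and 11 reads in WT at day 0, 10 in K20R replicate 1 with no call in replicate 2, 13 and 12 in WT at day 4, and again no call in K20R. The lowest called peak of the alpha window held 5 to 9 reads depending on the library, so a site without a call may still hold a few reads.

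Before Hba-x, the nearest sites lie in Nprl3, and those closest to the globin genes were seen in WT alone. A20 held 14 and 6 reads in WT at day 0 and 12 and 15 at day 4, and was not called in any of the 4 K20R libraries. A19 held 7 and 10 reads in WT at day 0 and 6 in WT replicate 2 of day 4, and was likewise not called in K20R. A18, by contrast, was strong in every library, with 56 and 63 reads in WT and 98 and 105 in K20R at day 0, and 74 and 86 in WT and 53 and 114 in K20R at day 4. The day 4 values of A18 overlapped between genotypes. The nearest strong site in every library before the alpha genes was thus A18, and the introns of Nprl3 between it and Hba-x held A19 and A20 alone.

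Beyond Hba-a2, the flank was formed by A23, A24 and A25. A25 had the most summit reads of the alpha window in every library except those of WT at day 0, where A8 did. It held 119 and 91 reads in WT and 175 and 189 in K20R at day 0, and 112 and 100 in WT and 112 and 220 in K20R at day 4. K20R lay above WT at day 0, and at day 4 the lower K20R value equalled the higher WT value. Its difference passed the test on neither day by limma (adjusted p = 0.228 and 0.486 for fold enrichment, 0.277 and 0.162 for summit reads).

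Loss was scored where both WT libraries of a day held a call and neither K20R library did, and gain where the reverse held. At day 0, A19 and A20 were lost, 2 of the 28 alpha sites called in both WT libraries, where 7.69% of such sites were lost in the genome. At day 4, A2, A20, A21 and A23 were lost, 4 of 27, where the genome gave 18.8%. No alpha site was gained on either day, where the genome gave 0.426% and 0.536% of the sites called in both K20R libraries. These shares were near or below the background and are no result about the globin loci. Calls were kept at 24 of 28 alpha sites at day 0 and 21 of 27 at day 4, where 85.5% and 69.6% of all such sites were kept. The sites lost in the alpha window were weak in WT, with 6 to 15 reads on the day of loss, and A2 held 9 and 8 reads in WT at day 4 and 7 in WT replicate 1 of day 0.

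Counts of peaks moved the same way. The alpha window held 31 and 28 peaks in WT and 27 and 28 in K20R at day 0, a difference of -2 (29.5 ± 2.12 against 27.5 ± 0.707, SD, n = 2 each, two-sided exact permutation p = 0.667). At day 4 it held 28 and 31 peaks in WT and 22 and 25 in K20R, a difference of -6 (29.5 ± 2.12 against 23.5 ± 2.12, SD, n = 2 each, two-sided exact permutation p = 0.333, the smallest that 2 libraries against 2 allow). Both K20R libraries of day 4 lay below both WT libraries. When every list was cut to its 41360 strongest peaks, the difference turned to 0.5 at day 0 and 1.5 at day 4.

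Sites called in all 8 lists could be compared in strength, which was done with limma over 36440 sites after each library had been centred on its median. Plots of summit reads show the sites named here.

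**Figure D2:**
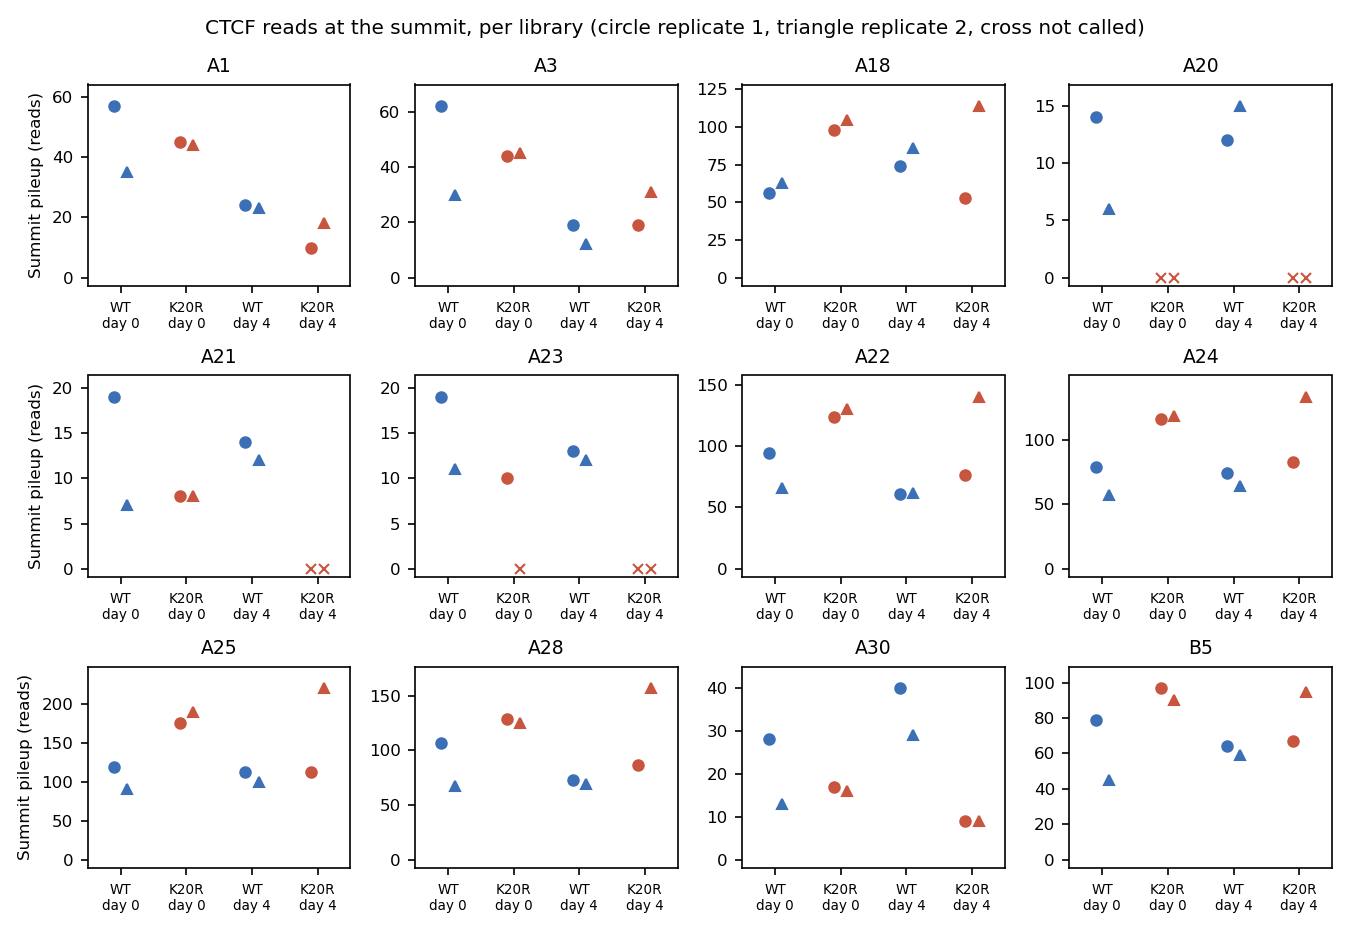
Reads at the CTCF summit (vertical axis, from 0) in the 2 libraries of each genotype and day, for 12 sites of the 2 windows. Circles are replicate 1, triangles replicate 2, blue WT and red K20R, and a cross on the zero line marks a library without a call, whose reads are unknown. At A30, both K20R libraries of day 4 held 9 reads and the WT libraries 40 and 29, and at A3 the WT libraries fell from 62 and 30 at day 0 to 19 and 12 at day 4.

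The change in strength with the firmest support was at A30, in an intron of Sh3pxd2b, a gene for an adaptor protein of podosomes, 77.9 kb beyond Hba-a2. Its summit reads were 28 and 13 in WT and 17 and 16 in K20R at day 0, and 40 and 29 in WT and 9 and 9 in K20R at day 4. Both K20R libraries of day 4 were below all other libraries. Their 9 reads equalled the lowest called peak of the alpha window in each of these libraries. Sites that fell further and were not called in a list did not enter this test. The K20R minus WT difference at day 4 was -2.01 ± 0.30 (SE) in log2 fold enrichment (adjusted p = 0.000115, limma) and -2.03 ± 0.32 in log2 summit reads (adjusted p = 0.00134, limma). It kept its direction and its call under all 13 alternatives. At day 0 the difference was -0.64 ± 0.30 in log2 fold enrichment, which did not pass (adjusted p = 0.110, limma).

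A1, the site at the far upstream end of the window and 171 kb before Hba-x, was lower in K20R EBs as well. It held 57 and 35 reads in WT and 45 and 44 in K20R at day 0, and 24 and 23 in WT and 10 and 18 in K20R at day 4. The day 4 difference was -0.67 ± 0.23 in log2 fold enrichment (adjusted p = 0.0328, limma) and -0.92 ± 0.25 in log2 summit reads (adjusted p = 0.0166, limma). The call on fold enrichment was lost without either K20R library of day 0 or either WT library of day 4, and without K20R replicate 1 of day 4, with adjusted p of 0.0550 to 0.166 by limma.

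In all, 3 of 21 alpha sites were called higher and 3 lower in K20R at day 0 on fold enrichment, where 14.9% and 13.7% of all sites were. At day 4, 7 were called higher and 2 lower, where 17.8% and 14.3% of all sites were. The median difference of the 21 sites was 0.18 at day 0 and 0.38 at day 4 in log2 fold enrichment, and -0.03 and 0.03 over all 36440 sites. On summit reads the calls fell to 1 higher and 0 lower at day 0 (1.47% and 3.93% of all sites) and to 3 higher and 2 lower at day 4 (11.1% and 10.1%). The count at day 0 was 3 without either K20R library of day 0, and the count at day 4 was 3 without WT replicate 2 of day 4.

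**Figure D3:**
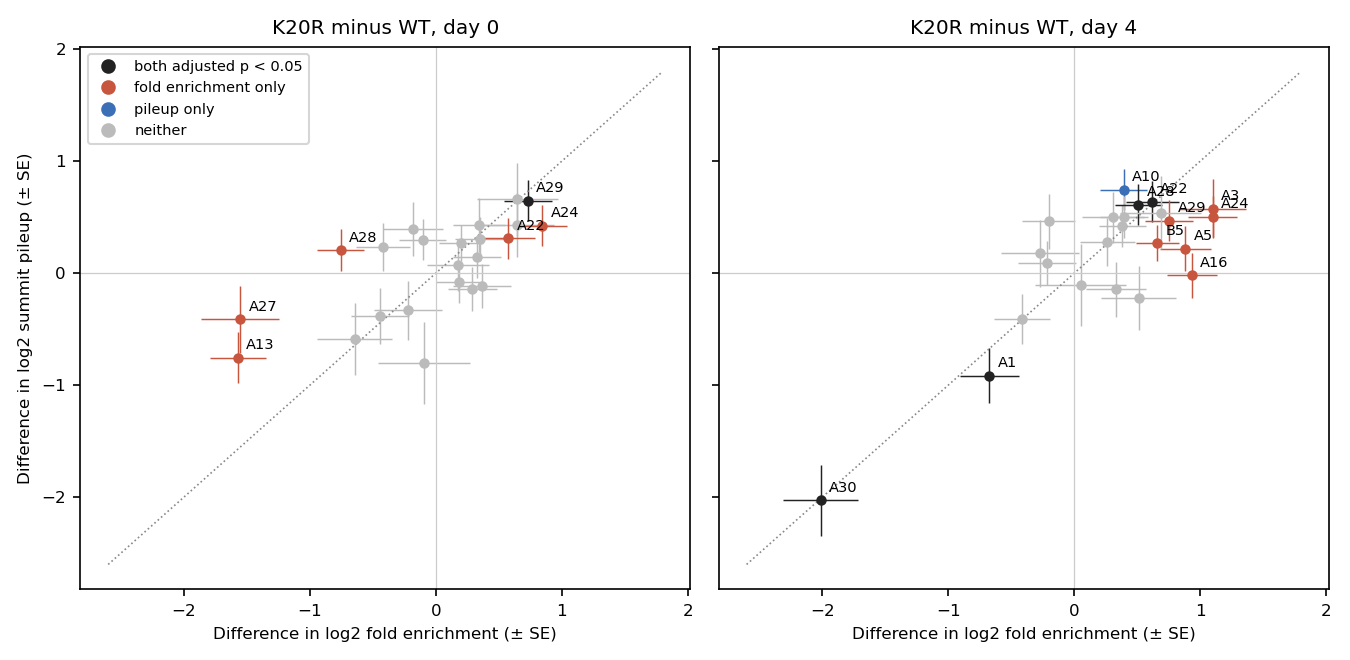
K20R minus WT difference in log2 summit reads (vertical) against that in log2 fold enrichment (horizontal) at the 23 sites called in all 8 lists, at day 0 (left) and day 4 (right), with bars of 1 SE from limma and a dotted line of equality. Black points passed both tests, red points fold enrichment alone, the blue point summit reads alone and grey points neither, and A28 lies on opposite sides of zero for the 2 measures at day 0.

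The calls that both measures share at day 4 were A1 and A30, which were lower, and A22 and A28, which were higher in K20R. A22 at the Hbq1b promoter differed by 0.62 ± 0.21 in log2 fold enrichment (adjusted p = 0.0306, limma) and by 0.64 ± 0.18 in log2 summit reads (adjusted p = 0.0221, limma). Its copy A24 differed by 1.10 ± 0.19 in log2 fold enrichment (adjusted p = 0.000438, limma), and on summit reads by 0.50 ± 0.18, which narrowly missed the threshold (adjusted p = 0.0532, limma). The call at A22 on fold enrichment was lost without any single library of WT at day 4 or of K20R at day 0, and without K20R replicate 2 of day 4 (adjusted p of 0.0546 to 0.164, limma). A28 differed by 0.51 ± 0.19 in log2 fold enrichment (adjusted p = 0.0446) and by 0.61 ± 0.18 in log2 summit reads (adjusted p = 0.0264, limma). Its call on fold enrichment was lost without either K20R library of day 0, either WT library of day 4 or K20R replicate 2 of day 4 (adjusted p of 0.0880 to 0.295, limma), and its direction turned when percentile ranks were compared. A10, 93.7 kb before Hba-x, was called higher on summit reads alone (0.75 ± 0.18, adjusted p = 0.0104, limma). At day 0, A22 and A24 were also called higher in K20R on fold enrichment (0.58 ± 0.21 and 0.85 ± 0.19, adjusted p = 0.046 and 0.00346, limma). These calls held under 5 and 11 of 13 alternatives. On summit reads neither passed at day 0 (adjusted p = 0.299 and 0.162, limma). The change of the difference between days was called at neither site (0.04 ± 0.30 and 0.25 ± 0.28 in log2 fold enrichment).

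The neighbouring sites A28 and A29 lie between the alpha genes and Sh3pxd2b, and they show where the measures part. At A28 the summit reads of day 0 were 107 and 67 in WT and 129 and 125 in K20R, so both K20R libraries held more reads. Fold enrichment was nevertheless 51.2 and 32.1 in WT and 33.4 and 32.4 in K20R, and K20R was called lower (-0.75 ± 0.19, adjusted p = 0.00605, limma). The local background there was 1.11 and 1.12 reads in WT and 2.89 and 2.89 in K20R. On summit reads the difference was 0.21 ± 0.18 (adjusted p = 0.493, limma). At A29, where the K20R background of day 0 was 0.746 and 0.749 reads, the summit reads were 87 and 52 in WT and 134 and 140 in K20R, and both measures called K20R higher (0.73 ± 0.19 in log2 fold enrichment, adjusted p = 0.00776, and 0.65 ± 0.18 in log2 summit reads, adjusted p = 0.0423, limma). The call at A29 on fold enrichment was lost without either K20R library of day 0 (adjusted p = 0.0551 and 0.0850, limma).

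At A13 the measures differed in size but had the same direction. Its summit lies 302 bp from the start site of Snrnp25, a gene for a component of the minor spliceosome. A13 held 54 and 44 reads in WT and 47 and 30 in K20R at day 0, with a local background of 0.738 and 0.746 reads in WT and 1.93 and 1.92 in K20R. The difference was -1.57 ± 0.22 in log2 fold enrichment (adjusted p = 0.000103, limma) and -0.75 ± 0.23 in log2 summit reads (adjusted p = 0.0555, limma). At A27, the background was 0.738 and 0.746 reads in WT and 2.89 and 2.41 in K20R, and a difference of -1.55 ± 0.31 in log2 fold enrichment (adjusted p = 0.00129, limma) shrank to -0.41 ± 0.30 on summit reads (adjusted p = 0.401, limma). At A16 in Nprl3, called higher at day 4 on fold enrichment (0.94 ± 0.20, adjusted p = 0.00161, limma), the summit reads were 61 and 60 in WT and 48 and 86 in K20R and gave -0.02 ± 0.20 (adjusted p = 0.951, limma).

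With differentiation, both measures called A3 lower in WT and A1 lower in K20R, while A5, A16 and A27 in WT and A10, A13 and A28 in K20R were called on fold enrichment alone, as was A1 in WT. A3, 166 kb before Hba-x, held 62 and 30 reads in WT at day 0 and 19 and 12 at day 4. In K20R it held 44 and 45 reads at day 0 and 19 and 31 at day 4. The WT change was -2.02 ± 0.27 in log2 fold enrichment (adjusted p = 0.000109, limma) and -1.43 ± 0.26 in log2 summit reads (adjusted p = 0.00645, limma), and it held under all 13 alternatives. The K20R change of A3 was -0.70 ± 0.27 in log2 fold enrichment and did not pass (adjusted p = 0.0709, limma). A1 fell in both genotypes on fold enrichment, with changes of -1.10 ± 0.23 in WT (adjusted p = 0.00228, limma) and -1.33 ± 0.23 in K20R (adjusted p = 0.000728, limma). On summit reads A1 passed in K20R (-1.38 ± 0.25, adjusted p = 0.00572) and not in WT (-0.85 ± 0.25, adjusted p = 0.0616, limma). In all, 0 of 21 alpha sites were called higher and 5 lower in WT EBs than in WT mESCs on fold enrichment, against 12% and 12.8% of all sites. In K20R, 3 were called higher and 1 lower, against 10.9% and 9.31%. On summit reads A3 in WT and A1 in K20R alone were called, where 0.708% of all sites were higher and 2.89% lower in WT, and 1.58% and 2.72% in K20R. The K20R minus WT difference itself changed between the days at 4 of 21 alpha sites on fold enrichment, with a positive interaction term at A3, A13 and A28 and a negative one at A30 (limma), where 7.07% of all sites had a positive and 5.79% a negative term, and at none of the 36440 sites on summit reads (limma, 2374 at an unadjusted p under 0.05). The WT count on fold enrichment was 2 without WT replicate 2 of day 0 or without either WT library of day 4.

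Peak calls were compared over time in the same way. In WT, A9 was lost from day 0 to day 4, 1 of the 28 sites called in both day 0 libraries, against 5.75% of such sites in the genome. A9 held 23 and 10 reads in WT at day 0 and, in K20R, 21 and 15 at day 0 and 14 in replicate 2 of day 4. In K20R, A21 and A31 were lost, 2 of 25, against 9.10%. No alpha or beta site was gained with time in either genotype, where the genome gave 3.81% of the sites called in both day 4 libraries in WT and 1.18% in K20R. These shares are no result about the globin loci.

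The beta globin genes are flanked by B2 and B5, and both were called in all 8 libraries. B2 lies 5.43 kb from the end of Hbb-bt, on the side of the adult genes. It held 22 and 22 reads in WT and 37 and 55 in K20R at day 0, and 16 and 28 in WT and 22 and 50 in K20R at day 4. In reads, K20R lay above WT at day 0, and at day 4 the genotypes overlapped. Library medians differed, however, and centred log2 fold enrichment gave the opposite order. At day 0 it was -1.11 and -0.21 in WT and -0.31 and 0.28 in K20R, which overlapped. At day 4 it was -1.19 and -0.42 in WT and -0.38 and 0.15 in K20R, which did not overlap. The K20R minus WT difference was 0.65 ± 0.32 in log2 fold enrichment at day 0 (adjusted p = 0.137, limma) and 0.69 ± 0.32 at day 4 (adjusted p = 0.107, limma), and on summit reads 0.66 ± 0.33 and 0.54 ± 0.33 (adjusted p = 0.224 and 0.227, limma). None of these passed the test, but the call on fold enrichment at B2 turned with the setting. It was made at day 0 over the sites called in the 4 lists of that day (adjusted p = 0.0437, limma). A fit with a term for the replicate number made it on both days (adjusted p = 0.0419 and 0.0283, limma). The replicate number, however, marked no pairing of samples common to all groups.

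B5 lies 89.7 kb before Hbb-y, beyond the side that holds the locus control region, and 1.51 kb from the start site of the olfactory receptor gene Olfr633. It held 79 and 45 reads in WT and 97 and 90 in K20R at day 0, and 64 and 59 in WT and 67 and 95 in K20R at day 4. On both days, each K20R library held more reads than each WT library. B5 was called higher in K20R at day 4 on fold enrichment (0.66 ± 0.17, adjusted p = 0.00741, limma), 1 of the 2 beta sites tested, and not on summit reads (0.27 ± 0.16, adjusted p = 0.227, limma). The call was lost without either WT library of day 4 (adjusted p = 0.0657 and 0.0546, limma).

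The remaining beta sites were weak and called in some libraries alone. B1, 1.23 kb from the start site of Olfr67 and 19.5 kb beyond Hbb-bt, held 15 reads in K20R replicate 1 of day 0, 10 in WT replicate 2 of day 4, and 10 and 15 in K20R at day 4. B4, 59.9 kb before Hbb-y, held 12 reads in K20R replicate 1 of day 0, 10 in WT replicate 2 and 10 in K20R replicate 2 of day 4. B3, 21.4 kb before Hbb-y, held 8 reads in WT replicate 2 of day 4 and was called nowhere else. No beta site was lost or gained in K20R on either day, nor from day 0 to day 4 in either genotype. Loss in K20R could be scored at 2 sites on each day, where the genome lost 7.69% and 18.8%. Gain in K20R could be scored at 2 sites at day 0 and 3 at day 4, where the genome gave 0.426% and 0.536%. Loss with time could be scored at 2 sites in each genotype, where the genome gave 5.75% in WT and 9.1% in K20R. Counts this small are no result about the beta locus. Peaks in the window numbered 2 and 2 in WT and 4 and 2 in K20R at day 0, and 2 and 5 in WT and 3 and 4 in K20R at day 4, and the means differed by 1 and 0 peaks (two-sided exact permutation p = 1 on both days, n = 2 each).

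Motif matches were counted by strand on each flank, and the flanks were not tested against each other. A match passed the threshold at 24 of 31 alpha sites and 5 of 5 beta sites, against 77.4% of all sites. Before Hba-x, 8 matches lay on the plus strand and 6 on the minus strand, and beyond Hba-a2, 2 lay on the plus strand and 6 on the minus strand. Around the beta genes, B1 lay on the plus strand and B2 to B5 on the minus strand, so the sites called in every library, B2 and B5, point the same way. In the alpha window, 8 matches lay in masked repeats (A3, A4, A7, A11, A12, A21, A23 and A27), against 43.6% of the matched sites of the genome, and 6 of these 8 were called in all 8 lists. Of the 7 alpha sites without a match, A16 alone was called in all 8 lists, and of the 16 with a match outside repeats, 14 were. The matrix was also searched on both strands of RefSeq promoters (250 bases before to 50 after each start) at a stricter threshold, which 1% of shifted sequences pass. Hbq1a and Hbq1b held a match, as did 3.74% of 27025 genes. The promoters of Hba-x, Hba-a1, Hba-a2, Nprl3, Mpg, Hbb-bt, Hbb-bs, Hbb-y and Hbb-bh2 held none. Hbb-bh1 had no promoter sequence to search.

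H3K27ac in day 4 EBs lay at the promoters of neighbours of the alpha genes. Fold enrichment of the peak at the Nprl3 start was 5.67 in WT and 5.05 in K20R, and that of the peak beside the Mpg start was 6.51 in WT and 5.35 in K20R. At Snrnp25 it was 4.37 in WT and 5.19 in K20R, and at Rhbdf1, which encodes an inactive rhomboid protease, 3.98 in WT and 3.49 in K20R. With 1 library per genotype these differences have no replicate check. No H3K27ac peak lay within 3 kb of the start of Hba-x or Hba-a1 in either genotype, and the whole beta window held 0 peaks in both genotypes, where the genome averaged 14.3 peaks per Mb in WT and 16.6 in K20R.

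**Figure D4:**
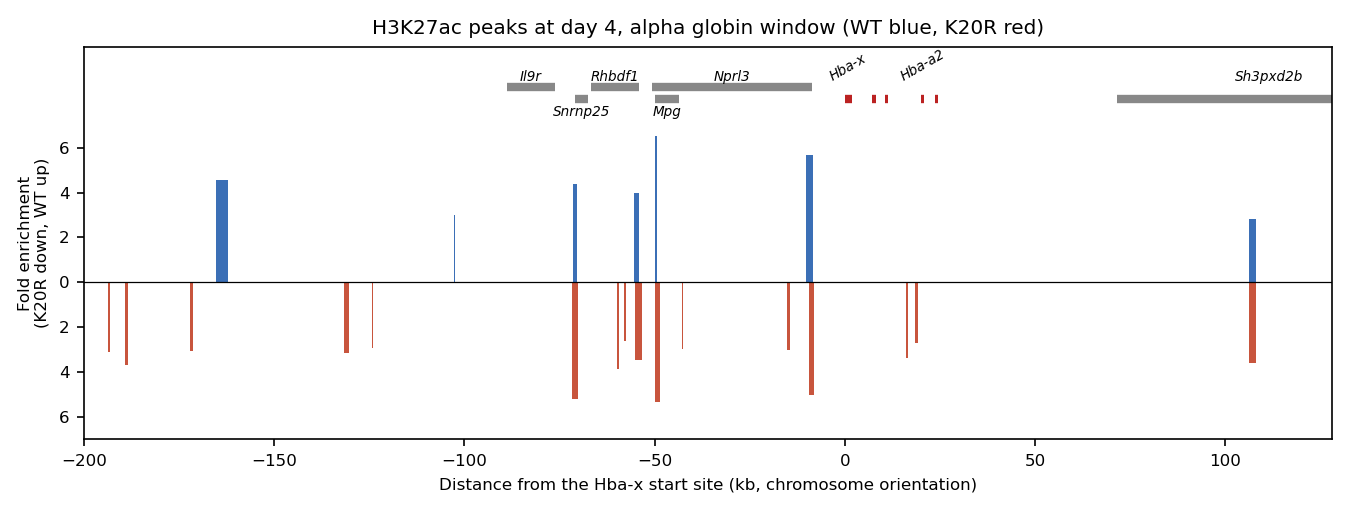
H3K27ac peaks of day 4 EBs in the alpha globin window by distance from the Hba-x start site (kb), with fold enrichment drawn upwards for WT (blue) and downwards for K20R (red), bar width as peak length, and genes above (globin genes red). WT has 7 peaks and K20R 16, and the K20R list alone has 2 weak peaks between Hba-a1 and Hba-a2.

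The WT list held 7 peaks in the alpha window, over 9.68 kb, and the K20R list 16, over 14.3 kb. Of the K20R peaks 11 had no WT peak overlapping, where 46.9% of all K20R peaks had none, and of the WT peaks 2 had no K20R peak, where 36.9% had none. The K20R-specific peaks were weak, and at a -log10 q of at least 5 each genotype held 3 peaks. Of the 11, 2 lay between Hba-a1 and Hba-a2, at chr11:32292470-32292967 (fold enrichment 3.37, -log10 q 2.19) and chr11:32294833-32295542 (fold enrichment 2.73, -log10 q 1.27). The latter ends 947 bp before the Hba-a2 start. The largest peak of WT without a K20R counterpart spanned 3043 bp at chr11:32111176-32114218 (fold enrichment 4.56). H3K27ac peaks overlapped A13 in both genotypes and A1 and A14 in K20R alone, and no other CTCF site of the window.

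Of the 9 genes of interest, Nprl3 and Mpg had H3K27ac at most 3 kb from a start in both genotypes, Hba-a2 in K20R alone, and the other 6 in neither, where 51.4% of protein-coding genes had such a peak in WT and 52.7% in K20R. CTCF peaks lay within 3 kb of the starts of Hba-a1, Hba-a2 and Mpg and of no beta globin gene, where the shares of protein-coding genes with one were 43% and 34.2% in WT and 32.7% and 32.9% in K20R at day 0, and 38.3% and 38.2% in WT and 27% and 34.9% in K20R at day 4. At Hba-a1 such peaks numbered 1 and 1 in WT and 2 and 1 in K20R at day 0, and 2 and 1 in WT and 0 and 0 in K20R at day 4. At Hba-a2 they numbered 1 and 1 in WT and 1 and 0 in K20R at day 0, and 1 and 1 in WT and 0 and 0 in K20R at day 4. The peaks are those of A21 and, in some libraries, A22 at Hba-a1, and of A23 at Hba-a2. At day 4 both counts were 0 in K20R, where A21 and A23 were not called. At Mpg, the peak was A15, with 17 and 12 reads in WT and no call and 12 in K20R at day 0, and 18 and 13 in WT and no call and 10 in K20R at day 4. Of the other genes, Gm12109, Il9r, Snrnp25, Hbq1b and Hbq1a and, in the beta window, Gm45655 and Olfr633 had a CTCF peak near a start in all 8 libraries, and Rhbdf1 and Olfr67 in some.

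Regulators of the globin genes were read in the same way, from H3K27ac near a start site at day 4, and are to be set against 51.4% of protein-coding genes in WT and 52.7% in K20R. Of 12 regulators, 5 had a peak in WT (Klf1, Ldb1, Zfpm1, Bcl11a and Zbtb7a) and 7 in K20R (the same 5 with Nfe2 and Myb), which is near those shares. Klf1 is the erythroid activator of the adult beta genes, and Bcl11a and Zbtb7a repress embryonic or fetal globin genes. Gata1, Gata2 and Tal1, which head the erythroid programme, had none in either genotype. Alas2, which encodes the erythroid enzyme of haem synthesis, and Epor, the erythropoietin receptor gene, had none either. Of 6 pluripotency markers, 4 had a peak in WT and 5 in K20R, and of 6 mesoderm markers, T, Eomes and Pdgfra had one in WT and 0 did in K20R. These marker counts differed between the 2 libraries, which have no replicate, and their part in the differences at the globin loci was not tested.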

How the data were processed

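CTCF and H3K27ac ChIP-seq libraries of 10 samples were used, and the 4 inputs were not analysed here. The authors used Trim_Galore for trimming and bowtie2 for alignment to mm10, discarded low mapping quality, duplicate and blacklisted reads, subsampled the CTCF libraries to one number and called peaks per library with MACS2 (broad for H3K27ac). Subsampling is not stated for H3K27ac, nor which input served each library. Each deposited list gives per peak a fold enrichment, which is a ratio over local background, and the p-value and q-value as -log10.

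CTCF peaks overlapping by at least 1 bp were merged into sites. Strength was the log2 of the highest fold enrichment of a site, centred on each library's median and tested with limma 3.58.1 (R 4.3.3) over the sites called in all 8 lists, with Benjamini-Hochberg adjustment at 0.05. Peak numbers were tested with exact permutation tests. Summit pileups were solved with a tolerance of 0.01 in -log10 p. No read counts per site are in the lists, so the authors' DiffBind test was not run. The 1000 strongest peaks of both WT day 0 lists served to learn a CTCF matrix of 19 bp, which was scored within 100 bp of summits. Start sites came from GENCODE M21 basic, with a promoter distance of 3 kb. The pileup and limma steps were tested on simulated data. Alternatives were other list lengths and thresholds, no centring, ranks, a replicate block and each library left out. The test on summit reads was added after seeing the data.

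The sites are those of both windows. Named genes are the 9 members, neighbours with a peak near a start, and the listed regulators and markers. The list of erythroid markers is not reported here as a whole. Members and lists were chosen with earlier results of these data known. Replicates are separate samples of one group, and p-values measure only the spread between them.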

Additional observations from a re-analysis of the deposited data

Results flagged for a closer look

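The K20R minus WT difference in log2 fold enrichment differed between day 4 and day 0 at 4 alpha globin sites by the interaction term in limma, where 7.07% of the 36440 sites were called with a positive and 5.79% with a negative term. The term was 1.32 ± 0.38 (SE) at A3 (adjusted p = 0.0270), 1.16 ± 0.32 at A13 (adjusted p = 0.0209), 1.27 ± 0.27 at A28 (adjusted p = 0.00466) and -1.37 ± 0.42 at A30 (adjusted p = 0.0370, limma). On summit reads, no site of the genome was called for this term at an adjusted p of 0.05 by limma (2374 sites at an unadjusted p under 0.05), and the terms were 0.91 ± 0.37 at A3, 0.35 ± 0.32 at A13, 0.41 ± 0.26 at A28 and -1.44 ± 0.45 at A30 (adjusted p = 0.760, 0.892, 0.836 and 0.760, limma). At A13 and A28 the local background of the K20R libraries of day 0 moved with the term, at 1.93 and 1.92 reads against 0.757 and 0.717 at day 4 for A13, and at 2.89 and 2.89 reads against 0.970 and 0.717 for A28. The part of the background in the term was not tested. The terms of A3, A13 and A30 on fold enrichment lost their call without any of several single libraries (adjusted p of 0.0650 to 0.191, limma), and that of A28 kept it without each of the 8.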

How the results depend on the processing

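Of 29 calls of single sites on fold enrichment, 2 kept their direction and call under every alternative (A30 between genotypes at day 4 and A3 with time in WT). In lists of one length, the difference in alpha peak number turned to 0.5 at day 0 and 1.5 at day 4, alpha losses fell to 0 on both days, alpha gains at day 4 rose to 2, beta gains at day 4 to 1, and the beta peak difference at day 4 was 1.5. At a -log10 q of at least 5, alpha losses at day 0 were 0, the beta peak difference at day 4 was 0.5 and the alpha H3K27ac difference 0. Without centring, which shifts the median of all sites by 0.43 (day 0), 0.16 (day 4), -0.04 (WT with time) and -0.32 (K20R with time), called alpha sites numbered 1, 1, 1 and 0 in these contrasts and 0 for the interaction, and beta sites at day 4 0. On percentile ranks the interaction held 1 alpha site, beta sites at day 4 were 0, and A28 at day 4 turned to -0.69. Over sites called in the 4 lists compared, K20R with time gave 7 alpha sites and day 0 gave 1 beta site. On summit reads, chosen after seeing the data, alpha sites numbered 1, 5, 1, 1 and 0 in the contrasts above, beta sites at day 4 0, and A28 at day 0 turned to 0.21, A16 at day 4 to -0.020 and A5 with time in WT to 0.21. Causes were not tested.

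Leaving out each library gave peak differences of -3.5 to -0.5 and -7.5 to -4.5 (alpha, days 0 and 4) and of 0 to 2 and -1.5 to 1.5 (beta). Alpha losses were 2 to 3 and 4 to 6, alpha gains 0 to 1 on both days, beta gains 0 to 2 and 0 to 1, and beta losses at day 4 0 to 1. Alpha sites called by strength ranged from 3 to 8 (day 0), 3 to 9 (day 4), 2 to 6 (WT with time), 3 to 6 (K20R with time) and 1 to 6 (interaction), and beta sites from 0 to 1 on both days.

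Deviations of replicates with the same number correlated at 0.322 for WT day 0 with K20R day 4. For the other pairs of groups the correlation was -0.034 to 0.028, so replicate numbers marked no pairing common to all groups. With the replicate block, beta sites called were 1 at day 0 and 2 at day 4, the added call on both days being B2. Called alpha sites with time in WT were 6 in place of 5, A30 being added (0.80, adjusted p = 0.0405, limma). Of 115 site and contrast values, these 3 calls were gained with the block, 29 were kept and 0 lost. Depth limits the weak sites, since the lowest called alpha peak held 5 to 9 reads.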
